A study of Mus musculus with 4 samples.

Results

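Smooth muscle contractile genes are described here in prostate of mice with and without a TMPRSS2:ERG transgene. The 32 genes were chosen by name, and all 32 were found among the 23242 rows of the expression table. RNA came from the ventral and dorsal lobes of the prostate in FVB mice. The wild-type group held mice 27 and 28, which are ERG negative. The homozygote group held mice 26 and 29, which are ERG positive and carry the TMPRSS2:ERG transgene on both alleles. The transgene is a bacterial artificial chromosome of the TMPRSS2 locus that carries part of human ERG, a transcription factor of the ETS family, behind a removable GFP cassette. The cassette was taken out by injecting Cre protein, and the homozygotes descend from 1 sub-line bred from a single GFP line, so an effect of the insertion site cannot be told apart from one of ERG. The labels give no age for the mice.

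Prostate ducts are wrapped in sheaths of smooth muscle, which squeeze secretion out of the gland, and vessels in the stroma carry smooth muscle too. In these cells myosin pulls on actin filaments after its light chain has been phosphorylated, and the filaments are anchored to dense bodies inside the cell and to adhesion plaques at its membrane. Serum response factor (SRF), bound to a DNA element named the CArG box, switches on many of the genes together with its cofactor myocardin.

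All values are FPKM, fragments per transcript length and library size, divided by a scaling factor for each library (scaled FPKM). Differences are homozygote minus wild type on the scale log2(scaled FPKM + 1), which understates the change of low genes. In bulk tissue, fewer smooth muscle cells and less RNA per cell cannot be told apart. The 31 genes with a value in all 4 libraries were tested. Lpp has no value in mouse 28 and was not tested. Each library held between 11541 and 11854 genes at 1 FPKM or more. Mouse 27 stood apart from the other wild type in most smooth muscle genes, and in seminal vesicle genes, described with the markers of other cells. The median and the number of genes called are therefore also given without mouse 27. Luminal epithelium genes of the prostate summed to between 11970 and 17160 scaled FPKM in the 4 libraries. The smooth muscle markers Acta2, Myh11, Tagln, Cnn1 and Des ranged from 119 scaled FPKM (Myh11, mouse 26) to 766 (Tagln, mouse 27).

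All tested smooth muscle genes had a lower mean in homozygotes, but a single one passed the test across all genes. Seminal vesicle genes, and most genes of the fibroblast, pericyte, endothelial, nerve and adipocyte lists, also lay below 0, and their part in the smooth muscle differences was not tested. Pgm5, a protein of adhesion plaques, fell by 0.72 on that log2 scale, with an SE of 0.122 (adjusted p = 0.0268 by limma). It was 1 of 31 tested, against a background of 3.00% of the 11762 genes tested that were called lower and 7.65% called in either direction. None of the 31 was called higher by limma, where the background was 4.65%, none had a positive difference at an unadjusted p under 0.05, and the authors' deposited table calls none higher, against 7.04% of its genes. All 31 tested genes had a difference below 0, against 50.6% of all genes tested. Their median was -0.40, against -0.0033 for all genes tested. In 27 of the 31, both homozygotes lay below both wild types, which was so in 25.8% of all genes tested, and in none were both above, which was so in 25.3%. At an unadjusted p under 0.05, 18 of the 31 were lower, against 10.0% of all genes tested. Kcnmb1 and Ldb3, both among the 27, had homozygote means under 1 scaled FPKM and passed the filter on level through the wild types alone. Ldb3 is also among the 18. Group means of scaled FPKM were between 15.0% and 52.5% lower in homozygotes, with a median of 31.3%. These counts describe the list and carry no test of it, because the genes share cells and vary together.

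**Figure D1:**
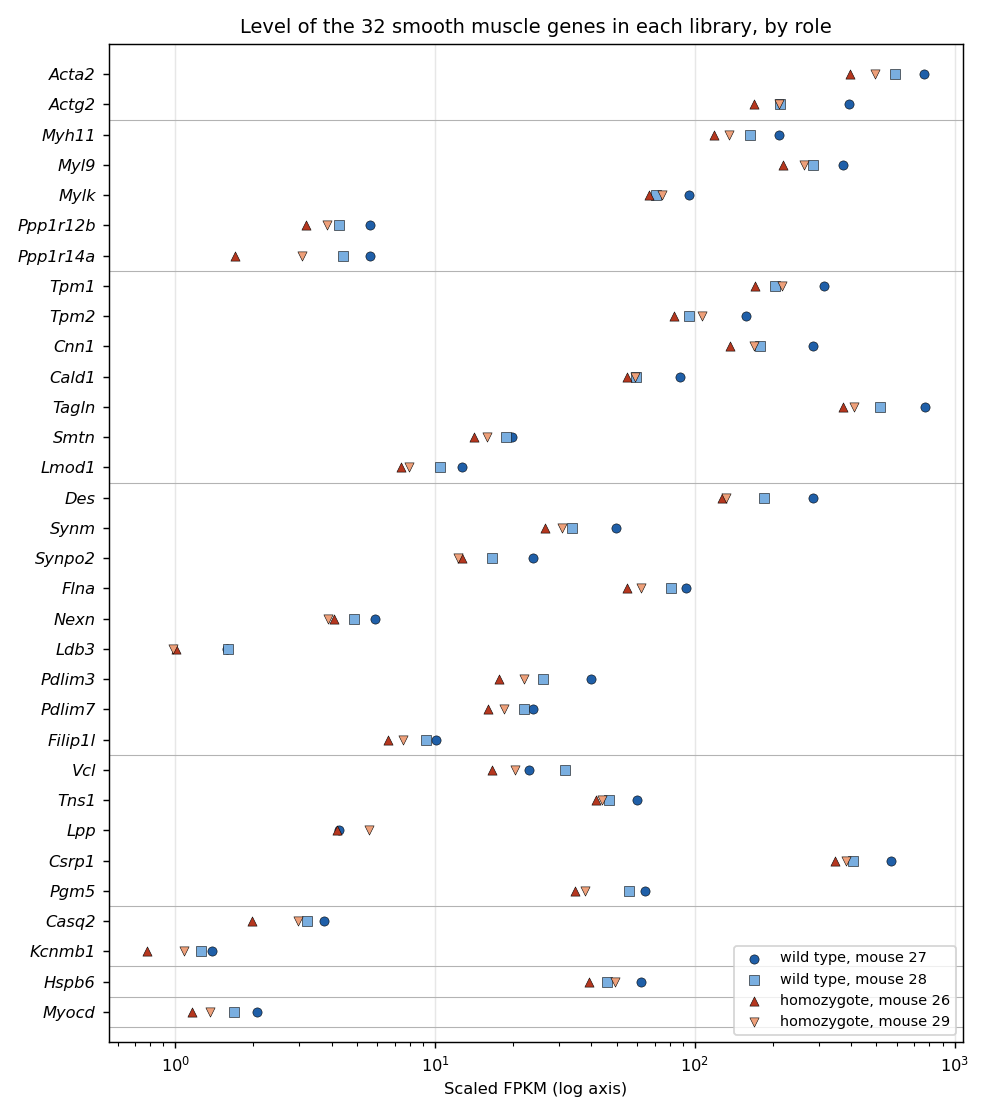
Scaled FPKM (log axis) of the 32 smooth muscle genes, grouped by role between the grey lines, with 1 point for each library. The wild types (blue) lie to the right of the homozygotes (red) in 27 of the 31 genes with 4 values, and mouse 27 is the highest in 29 of them.

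The upstream sequences of 5 genes are shown as background, since SRF acts at promoters. The part of SRF in the differences between genotypes was not tested. They are the 250 bases before the start of each gene in RefSeq (GRCm38.p6), on the coding strand. Capitals mark CArG boxes, also those with at most 1 G or C in the core of A and T. Acta2 is given as the reference smooth muscle gene, Myl9, Vcl and Filip1l because they hold a CArG box, and Pgm5 because it was called.
Acta2, chr19:34255374-34255623, minus strand: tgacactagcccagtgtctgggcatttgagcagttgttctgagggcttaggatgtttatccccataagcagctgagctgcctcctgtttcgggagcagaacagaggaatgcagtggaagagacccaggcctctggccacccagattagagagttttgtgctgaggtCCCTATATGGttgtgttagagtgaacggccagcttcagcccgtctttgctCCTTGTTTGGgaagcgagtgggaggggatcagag
Myl9, chr2:156775214-156775463, plus strand: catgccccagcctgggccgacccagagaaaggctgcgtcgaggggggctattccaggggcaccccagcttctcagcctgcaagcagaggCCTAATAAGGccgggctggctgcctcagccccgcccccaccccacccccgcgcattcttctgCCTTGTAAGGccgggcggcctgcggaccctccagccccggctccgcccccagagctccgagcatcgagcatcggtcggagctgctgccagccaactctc
Vcl, chr14:20929148-20929397, plus strand: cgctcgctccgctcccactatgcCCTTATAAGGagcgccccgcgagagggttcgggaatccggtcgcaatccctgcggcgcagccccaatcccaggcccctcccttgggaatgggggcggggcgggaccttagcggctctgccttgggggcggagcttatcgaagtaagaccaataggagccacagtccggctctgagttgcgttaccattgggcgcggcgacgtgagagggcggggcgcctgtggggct
Filip1l, chr16:57548992-57549241, plus strand: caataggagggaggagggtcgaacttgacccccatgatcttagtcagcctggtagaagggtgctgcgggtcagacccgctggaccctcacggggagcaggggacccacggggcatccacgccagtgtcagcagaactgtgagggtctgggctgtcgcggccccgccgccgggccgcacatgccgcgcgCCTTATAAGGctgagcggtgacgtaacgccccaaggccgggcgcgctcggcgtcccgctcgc
Pgm5, chr19:24861843-24862092, minus strand: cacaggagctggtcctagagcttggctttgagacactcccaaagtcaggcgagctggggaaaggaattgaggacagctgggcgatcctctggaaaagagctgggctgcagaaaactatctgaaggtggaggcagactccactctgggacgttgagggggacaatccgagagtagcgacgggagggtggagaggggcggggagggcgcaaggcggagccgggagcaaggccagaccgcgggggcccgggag

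RefSeq windows from 250 bases before to 50 bases after a start were found for 27 of the 32 genes, in 34 windows. Myh11, Tagln, Nexn, Myocd and Actg2 had no entry. A CArG box, which reads the same on both strands, was in the window of 4 of the 27 genes (14.8%), namely Myl9, Vcl, Ldb3 and Filip1l, against 1.81% of 27025 genes. The boxes start 161 bases before the gene start in Myl9, 227 in Vcl and 62 in Filip1l, there at the downstream of its starts. With at most 1 G or C allowed in the core, a box was in 9 of the 27 (33.3%), Acta2 with a pair among them, against 11.3% of all genes. The core GGAA of ETS factors, on either strand, was in the windows of all 27 and of 96.5% of all genes, and the longer ETS word CCGGAAGT, which contains that core, in 0 of 27 against 4.31%. The 4 genes with a CArG box had differences of -0.44 (Myl9), -0.54 (Vcl), -0.38 (Ldb3) and -0.40 (Filip1l), near the median of the 31. A match describes the letters in the window and is no evidence of binding.

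Acta2 was the most abundant member. It encodes the alpha actin that defines smooth muscle (Entrez 11475, chromosome 19, 34241091 to 34255336, mm10), and had 762 and 591 scaled FPKM in the wild types (mice 27 and 28), while the homozygotes (mice 26 and 29) had 395 and 496. Both homozygotes were below both wild types, with a difference of -0.60 (SE 0.217, limma adjusted p = 0.191), which did not pass. Actg2, the gamma actin of visceral muscle (Entrez 11468, chromosome 6, 83512909 to 83536251), was at 390 and 213 scaled FPKM in the wild types and 169 and 212 in the homozygotes. Mouse 27 stood apart and mouse 28 was nearly level with mouse 29. The difference was -0.60 (SE 0.306, limma adjusted p = 0.344). Actins are near-identical in their coding sequence, so reads of Acta2, Actg2 and Acta1 may be split between them.

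Myosin and its regulators gave 5 genes, none of which passed by limma. At an unadjusted p under 0.05, 3 were lower, against 10.0% of all genes tested. Myh11, the heavy chain of smooth muscle myosin (Entrez 17880, chromosome 16, 14194527 to 14291408), had scaled FPKM of 211 and 163 in the wild types (mice 27 and 28) against 119 and 135 in the homozygotes (mice 26 and 29). The homozygotes lay below the wild types, with a difference of -0.55 (SE 0.172, limma adjusted p = 0.142). Ppp1r14a, also named CPI-17, an inhibitor of myosin phosphatase that keeps the light chain phosphorylated, had the largest difference of the list. It was at 5.60 and 4.44 scaled FPKM in the wild types and 1.70 and 3.07 in the homozygotes, a mean 52.5% lower, with a difference of -0.85 (SE 0.223, limma adjusted p = 0.0893). Both homozygotes were below both wild types, and mouse 26 was the lowest. Ppp1r12b, a targeting subunit of that phosphatase, was at -0.39, and the light chain gene Myl9 at -0.44. Mylk, the kinase that phosphorylates the light chain, was the least different of the 31, at 94.7 and 71.1 scaled FPKM in the wild types and 66.4 and 74.5 in the homozygotes. Its groups overlapped, since mouse 29 exceeded mouse 28, and its 95% interval ran from -0.64 to 0.20.

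None of the 7 thin filament genes passed by limma. At an unadjusted p under 0.05, 3 were lower, against 10.0% of all genes tested. Tagln, transgelin, an actin-binding protein used as an early marker of smooth muscle (Entrez 21345, chromosome 9, 45929628 to 45936058), had 766 and 517 scaled FPKM in the wild types against 373 and 411 in the homozygotes. The homozygotes were close to each other and below both wild types, at -0.68 (SE 0.234, limma adjusted p = 0.171). Cnn1, calponin, which restrains the myosin motor (Entrez 12797, chromosome 9, 22099253 to 22109221), was at 285 and 178 scaled FPKM against 136 and 168. Mouse 28 was nearer to mouse 29 than to mouse 27, and the difference was -0.57 (SE 0.254, limma adjusted p = 0.283). Lmod1, which seeds actin filaments, differed by -0.52 and smoothelin (Smtn) by -0.34, both with homozygotes below wild types. The tropomyosins, which lie along the actin filament, overlapped between groups: Tpm1 and Tpm2 were higher in mouse 29 than in mouse 28. Their differences of -0.40 and -0.37 had 95% intervals that reached 0.22 and 0.28. Caldesmon (Cald1) was nearly level in mouse 28 (59.4 scaled FPKM) and mouse 29 (59.1).

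Intermediate filament and dense body genes gave 9 members. In each of the 9 both homozygotes were below both wild types, as in 25.8% of all genes tested. None passed by limma. At an unadjusted p under 0.05, 8 were lower, against 10.0% of all genes tested. The authors' deposited table calls 3 of them lower, against 7.10% of its genes. Ldb3, in each of these counts, passed the filter on level through the wild types alone. Des, desmin, the muscle intermediate filament that ties dense bodies together (Entrez 13346, chromosome 1, 75360344 to 75367715), was at 285 and 185 scaled FPKM in the wild types and 127 and 132 in the homozygotes. The homozygotes were nearly equal and 45.1% below the wild-type mean, with a difference of -0.83 (SE 0.223, limma adjusted p = 0.0977). Pdlim3, a scaffold that binds alpha-actinin, was at 39.7 and 25.96 scaled FPKM against 17.6 and 22.04, a difference of -0.68 (SE 0.222, limma adjusted p = 0.156). Synpo2, an actin-bundling protein, was at -0.63 and filamin A (Flna), which crosslinks actin, at -0.56 with the lowest adjusted p among members that did not pass (limma, 0.0677). Synemin (Synm) was at -0.50. Pdlim7, Filip1l, Ldb3 and nexilin (Nexn) lay between -0.40 and -0.36.

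Adhesion plaques held the called gene. Pgm5, also named aciculin, a relative of phosphoglucomutase that binds dystrophin and filamin rather than acting as an enzyme (Entrez 226041, chromosome 19, 24678261 to 24861842), had 64.3 and 56.0 scaled FPKM in the wild types, a mean of 60.2 ± 5.87 (SD, n = 2). In the homozygotes it had 34.6 and 37.7, a mean of 36.1 ± 2.23 (SD, n = 2), so both pairs were tight and well apart. Its call was lost without mouse 26 (limma adjusted p = 0.238), without mouse 29 (0.131), without a filter on low values (0.152) and when libraries were scaled on fibroblast genes (0.0671). Vinculin (Vcl), which links actin to integrin sites, was with Ldb3 one of the 2 members higher in mouse 28 than in mouse 27. It had 31.7 scaled FPKM in mouse 28 but 23.1 in mouse 27, with 16.6 and 20.3 in mice 26 and 29. Tensin 1 (Tns1) was at -0.31 and Csrp1, a LIM protein, at -0.40. Lpp, another LIM protein of these plaques, was at 4.26 scaled FPKM in mouse 27 and 4.20 and 5.56 in mice 26 and 29, so the 3 values available did not place the wild type above the homozygotes. Its locus overlaps 2 other rows of the table.

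Calcium handling, the small heat shock protein and myocardin were the low or variable members. Casq2, which stores calcium in the sarcoplasmic reticulum, was at -0.38 and Kcnmb1, the beta subunit of a calcium-activated potassium channel, at -0.27, with limma adjusted p of 0.301 and 0.356. Kcnmb1 and Ldb3 passed the filter of 1 scaled FPKM through the wild types, since their homozygote means were 0.931 and 0.994. The locus of Kcnmb1 lies wholly inside that of Kcnip1, and that of Filip1l inside another row. Reads of such neighbours cannot be told apart unless strand was used in counting. Hspb6, a small heat shock protein that relaxes smooth muscle when phosphorylated, overlapped between groups at -0.28. Myocd, myocardin, the cofactor of SRF in smooth and heart muscle (Entrez 214384, chromosome 11, 65176571 to 65269989), had 2.06 and 1.68 scaled FPKM in the wild types against 1.16 and 1.37 in the homozygotes. Its homozygote values lay below both wild types, and the difference of -0.34 (SE 0.135, limma adjusted p = 0.230) did not pass.

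**Figure D2:**
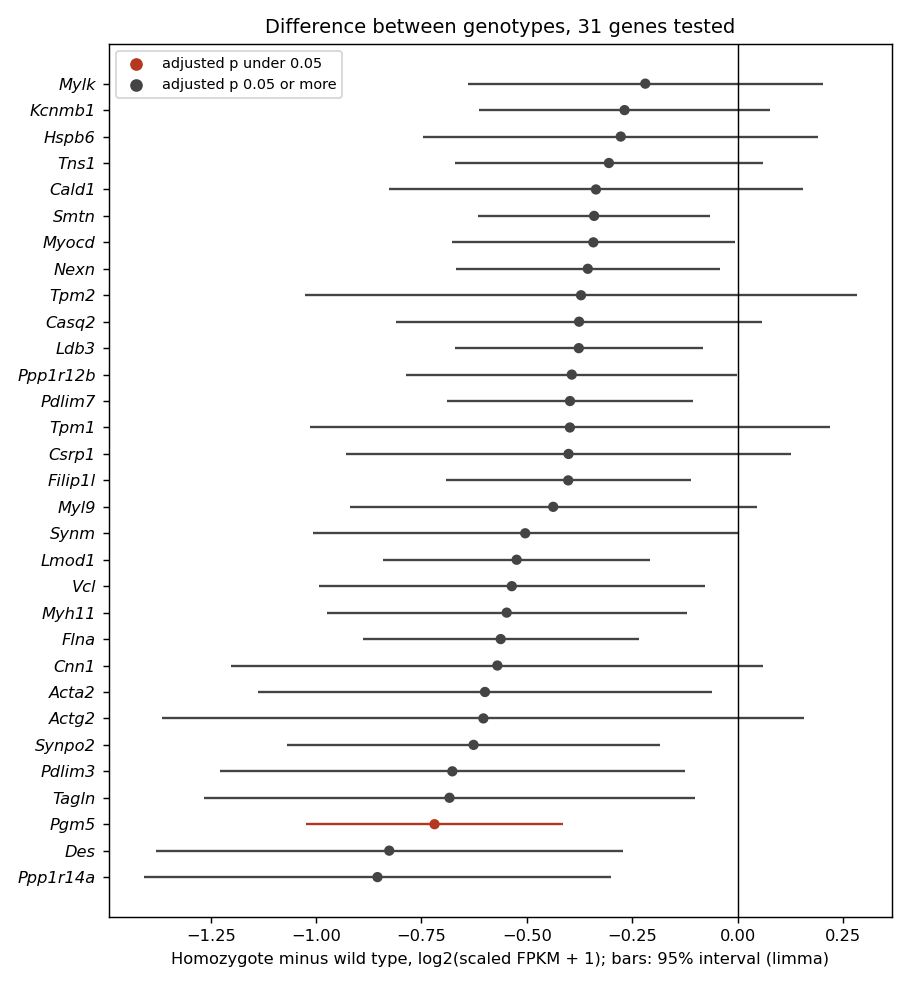
Difference between genotypes on the log2(scaled FPKM + 1) scale for each of the 31 genes tested (points), with limma's 95% interval (bars). Every point lies below 0 and 18 intervals do so entirely, while the called gene, Pgm5 (red), has one of the narrower intervals and not the largest difference.

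No tested gene was as low as -1 on the log2(scaled FPKM + 1) scale, which is a halving for abundant genes alone. The mean of the low gene Ppp1r14a was 52.5% lower at a difference of -0.85. The intervals of 12 of the 31 included -1, so larger differences cannot be set aside at this number of mice. The authors' deposited table, made with another test, gives a log2 fold below 0 for each of the 31, with a median of -0.40, and calls 4 of them lower at a q-value under 0.05: Synm (-0.35, q-value 0.00333), Ldb3 (-0.63, q-value 0.0134), Synpo2 (-0.58, q-value 0.0245) and Pgm5 (-0.68, q-value 0.0248). Its background was 7.10% of genes called lower.

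The libraries within a genotype also differed in these genes. Mouse 27 was the highest library in 29 of the 31 genes and mouse 26 the lowest in 28, and 23 followed the order mouse 27, mouse 28, mouse 29, mouse 26. The median difference of mouse 27 minus mouse 28 was 0.37, with 29 of 31 genes above 0, nearly the size of the difference between genotypes. All genes tested had a median of -0.012 in that pair. In 10 of the 31 genes the gap between the wild types was larger than the difference between genotypes, and in 2 the gap between homozygotes was. Mouse 26 minus mouse 29 had a median of -0.19. Across genotypes, the median ran from -0.71 for mouse 26 minus mouse 27 to -0.22 for mouse 29 minus mouse 28. In that closest pair 27 of the 31 genes were below 0 and 4 above it, Mylk, Tpm1, Tpm2 and Hspb6.

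**Figure D3:**
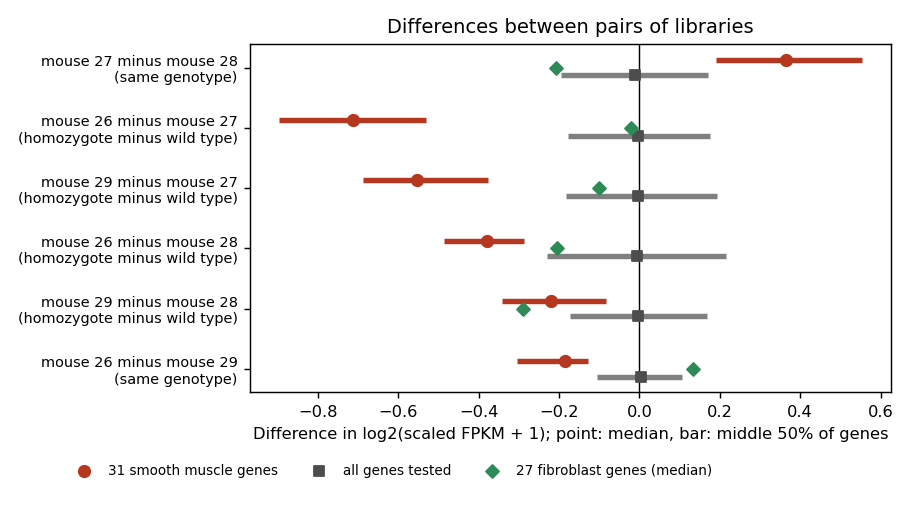
Differences in log2(scaled FPKM + 1) between each pair of libraries for the 31 smooth muscle genes (red), all 11762 genes tested (grey) and 27 fibroblast and matrix genes (green, median alone). The wild types differ from each other by a median of 0.37 in the smooth muscle genes, close to the 0.38 between mice 26 and 28.

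Counts of called genes moved with the libraries. Without mouse 28 the list had 16 genes called lower of 32 tested, among them Des, Tagln, Cnn1, Myh11 and Actg2, where 5.59% of all genes were called lower. Without mouse 27 the 2 genes Vcl and Pgm5 were called, against 8.75% of all genes, and without mouse 29 the 1 gene Ppp1r14a, against 1.25%. Without mouse 26 limma called none, against 1.18% of all genes, with 4 at an unadjusted p under 0.05. Each of these fits takes the spread of the lone library from the other genotype. Quantile normalization called 4 genes lower, Tagln, Des, Flna and Pgm5, against 2.88% of all genes.

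Summed over the 31 genes, the level was 4800 and 3386 scaled FPKM in wild-type mice 27 and 28 and 2559 and 3000 in homozygous mice 26 and 29. As a share of each library's deposited FPKM, leaving out the top value of the table, these genes made up 0.937% and 0.739% in the wild types and 0.501% and 0.661% in the homozygotes. The scaled sum separated the groups, with mouse 27 well above the rest. The share did so only with the top value left out. That value stood in 6 and 4 genes of mice 27 and 28 and in 2 and 3 genes of mice 26 and 29. With it kept in the total, the share of mouse 29 lay above that of mouse 28. The 27 fibroblast and matrix genes summed to 860 and 942 scaled FPKM in the wild types and 904 and 789 in the homozygotes. These groups overlapped, but the overlap rests on Dcn, at 196, 207, 243 and 197 scaled FPKM in mice 27, 28, 26 and 29. Without Dcn both homozygotes lie below both wild types, mouse 26 just below mouse 27. The ratio of the smooth muscle sum to the fibroblast sum was 5.58 and 3.59 in the wild types against 2.83 and 3.80 in the homozygotes. It did not separate the genotypes, since mouse 29 lay above mouse 28. Of the fibroblast genes, 1 of 27 fell, periostin (Postn, -0.87, SE 0.114, limma adjusted p = 0.0114), none rose (0 at an unadjusted p under 0.05, and 0 in the authors' deposited table), and the median was -0.13. The 1 call among 27 stood against 3.00% of all genes tested that were called lower. Of the 27, 19 lay below 0, against 50.6% of all genes tested. In 12 both homozygotes were below both wild types and in 2 both were above, against 25.8% and 25.3%. At an unadjusted p under 0.05, 5 were lower, against 10.0%. In mouse 29 minus mouse 28 the fibroblast median, -0.29, was below that of the smooth muscle genes, -0.22. When libraries were scaled on the fibroblast genes, the median of the smooth muscle genes was -0.26 while that of all genes tested was 0.15, and all 31 lay below 0. Under that scaling 5 of the 31 had an unadjusted p under 0.05, and 1 gene was called, Ppp1r14a, against 3.21% of all genes.

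Non-muscle counterparts, the actin, myosin and tropomyosin genes that every cell uses, did not show the same direction. Of 14 tested none passed by limma (3 lower and 1 higher at an unadjusted p under 0.05, and 1 lower in the authors' deposited table), and 9 lay above 0 with a median of 0.06. The gene with the largest moderated statistic was Cnn3 (-0.39, limma adjusted p = 0.135). Ratios within a library need no scaling between libraries. The 2 contractile actins stood at 1.17 and 0.769 of the sum of Actb and Actg1 in the wild types and at 0.578 and 0.703 in the homozygotes. Tagln was 10.5 and 5.63 times Tagln2, its non-muscle relative, in the wild types and 2.93 and 3.88 times in the homozygotes. Tagln2 itself was at 72.7 and 91.7 scaled FPKM in the wild types and 127 and 106 in the homozygotes (0.50). That ratio is therefore not the size of the difference in Tagln. Of the 14 counterparts, 4 had both homozygotes above both wild types and 4 had both below, against 25.3% and 25.8% of all genes tested. Of 7 such ratios, 5 had both homozygotes below both wild types. The ratio of Tpm1 and Tpm2 to Tpm3 and Tpm4 overlapped between groups, as did that of Cnn1 to Cnn2 and Cnn3. The pairs were chosen with the values known and carry no test.

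**Figure D4:**
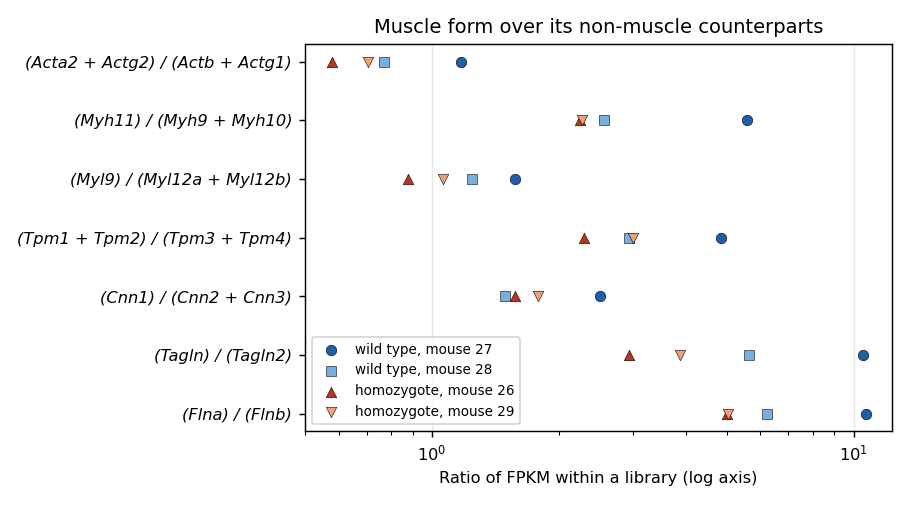
Ratio of the FPKM of each muscle form to that of its non-muscle counterparts within each library (log axis). Mouse 27 has the highest ratio in each of the 7 pairs, while mouse 28 lies close to the homozygotes in several, and among or below them for the tropomyosins and calponins.

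SRF cofactors and regulators did not move as a group. Of 13 tested, none passed by limma (1 lower and 1 higher at an unadjusted p under 0.05, and 1 lower in the authors' deposited table), and the median was 0.0052. Srf itself was at 11.9 and 12.2 scaled FPKM in the wild types and 10.5 and 11.8 in the homozygotes. The gene with the largest moderated statistic was Mef2d (0.45, limma adjusted p = 0.150). In contraction signalling, 3 of 22 fell and 1 rose, against 3.00% and 4.65% of all genes tested. Rgs2, which shortens signals of the angiotensin and adrenergic receptors, fell from 139 and 141 scaled FPKM to 58.7 and 45.2, by 1.42 (SE 0.154, limma adjusted p = 0.00637). The angiotensin receptor gene Agtr1a fell from 70.1 and 89.8 to 42.2 and 38.8 scaled FPKM (-0.96, SE 0.151, limma adjusted p = 0.0212), and the alpha-1A adrenergic receptor gene Adra1a, which mediates contraction of prostate muscle, fell from 1.55 and 1.61 to 0.620 and 0.754 (-0.61, SE 0.125, limma adjusted p = 0.0449). Adra1a passed the filter of 1 scaled FPKM through the wild types alone (homozygote mean 0.687), and its call is no independent support for a fall of the list. Unlike most smooth muscle genes, these 3 had wild-type values in mouse 27 no higher than in mouse 28. Kcnma1, the pore subunit of the channel that Kcnmb1 modulates, rose from 12.1 in each wild type to 19.8 and 21.8 scaled FPKM (0.73, SE 0.105, limma adjusted p = 0.0158). Leaving out mouse 26 or mouse 29 ended the calls of Adra1a, Agtr1a and Kcnma1. Testing without a filter ended all 4, unscaled FPKM those of Agtr1a and Adra1a, and scaling on fibroblast genes or a pseudocount of 0.1 that of Adra1a.

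Muscle attachment genes, which tie the cell to its matrix, had 2 of 20 fall and 1 rise, against 3.00% and 4.65% of all genes tested. Of the 20, 17 lay below 0, against 50.6% of all genes tested, with a median of -0.24. The integrin subunits Itga5 (-1.10, SE 0.162, limma adjusted p = 0.0171) and Itga8 (-0.74, SE 0.141, limma adjusted p = 0.0367) fell, and Lims1, an adaptor of integrin-linked kinase, rose by 0.64 (SE 0.124, limma adjusted p = 0.0395). Leaving out mouse 29, or the filter on low values, ended all 3 calls. Leaving out mouse 26 ended those of Itga8 and Lims1, unscaled FPKM that of Itga8 and quantile normalization that of Lims1. Lims2, the relative of Lims1, was at -0.42 and did not pass.

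**Figure D5:**
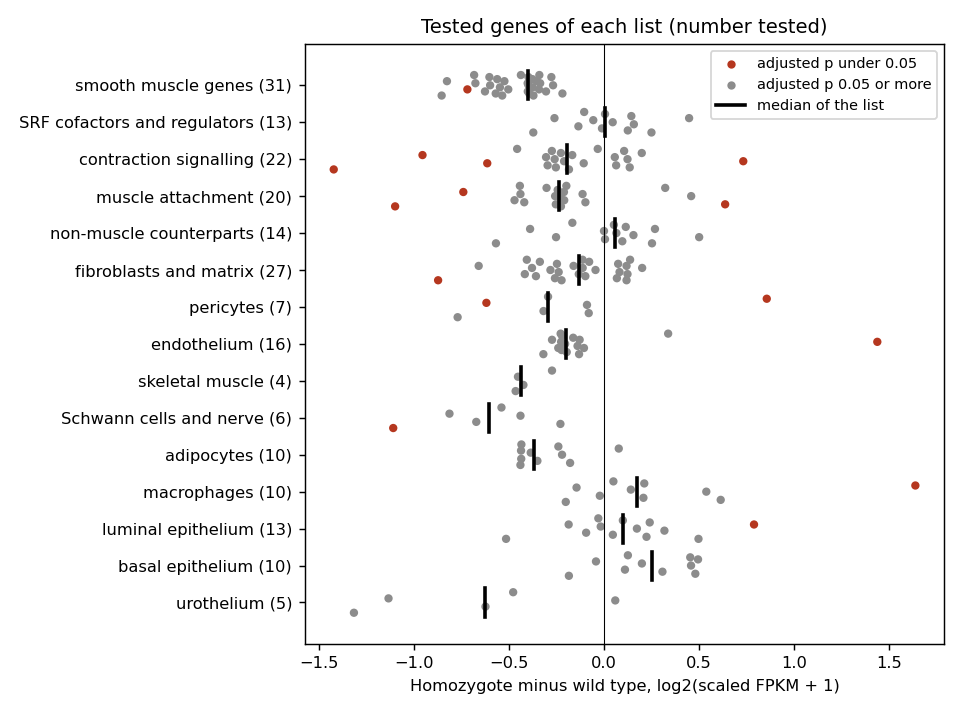
Difference between genotypes on the log2(scaled FPKM + 1) scale for each tested gene of the smooth muscle, pathway and cell marker lists (points), with called genes in red and the median of each list as a bar. The 31 smooth muscle genes lie within a narrow band at -0.85 to -0.22, and most genes of the Schwann cell, adipocyte, pericyte and endothelial lists lie below 0 as well. The heart and seminal vesicle lists are not drawn.

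Markers of other muscle were checked because desmin, tropomyosin, Casq2 and Ldb3 are also found in striated muscle. The skeletal myosins Myh1, Myh2 and Myh4 were under 1 scaled FPKM in every library and the heart genes Myh6, Myh7, Actc1 and Nppa likewise. In all, 9 of 16 skeletal muscle genes and 7 of 8 heart genes were under 1 in every library. Others were present: in mice 27, 28, 26 and 29, Tnnc2 was at 36.7, 28.8, 21.6 and 25.6 scaled FPKM. Ckm was at 12.9, 8.82, 7.63 and 9.80, and the heart gene Tnnt2 at 2.33, 2.99, 0.815 and 2.26. Of 16 skeletal muscle genes, 4 were tested, none passed by limma (1 lower at an unadjusted p under 0.05, 4 lower in the authors' deposited table), and the one with the largest moderated statistic was Tnnc2 (-0.45, limma adjusted p = 0.176). The skeletal sum was 237 and 159 scaled FPKM in wild types and 128 and 151 in homozygotes, most of it Acta1, at 184, 112, 95.04 and 113 in mice 27, 28, 26 and 29. Of 8 heart genes, Tnnt2 alone was tested (-0.58, limma adjusted p = 0.328).

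Seminal vesicle genes moved with the smooth muscle genes across libraries. That gland also has a muscular wall. Of 12 such genes 9 were tested and 6 fell, Svs1, Svs3a, Svs3b, Svs6, Sva and Spinkl, against 3.00% of all genes tested. The 9 summed to 42713 and 11082 scaled FPKM in the wild types against 4353 and 8185 in the homozygotes. Svs2, Svs4 and Svs5 are in none of the sums, since Svs2 lacked a value in every library and Svs4 and Svs5 in mouse 27. In mice 28, 26 and 29, Svs5 was at 20315, 6311 and 11693 scaled FPKM and Svs4 at 2337, 190 and 292. For Svs1 mice 27, 28, 26 and 29 had 3421, 236, 3.83 and 1.05 scaled FPKM. The order of the 4 sums is the same as for the smooth muscle genes, but the homozygote sums are almost all Pate4 (4318 and 8148 scaled FPKM), which did not pass. Without it the other 8 summed to 26843 and 1178 in the wild types against 34.1 and 37.2 in the homozygotes, and Svs1, Svs3b and Spinkl were higher in mouse 26 than in mouse 29. The part of seminal vesicle tissue in their differences was not tested. A robust trend or testing without a filter ended all 6 calls. Leaving out mouse 26 or mouse 29, or unscaled FPKM, ended 3 of them (Svs6, Sva and Spinkl), quantile normalization ended the last 2 of these, and a fit with no trend ended Spinkl.

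Several of the remaining cell type lists also lay mostly below 0. Over all genes tested, 50.6% lay below 0, and 25.8% were lower without overlap. Calls over all genes tested were 3.00% lower and 4.65% higher. Of 7 pericyte genes tested, Mcam fell (-0.62, limma adjusted p = 0.0486) and Anpep rose (0.86, limma adjusted p = 0.0292), 6 lay below 0 and the median was -0.29. The 10 genes summed to 45.1 and 57.5 scaled FPKM in wild types and 58.0 and 57.4 in homozygotes, but without Anpep the sums were 28.1 and 35.4 against 20.7 and 23.0, lower in both homozygotes. Ndufa4l2 was listed at 0 in each library. Of 16 endothelial genes Ramp2 rose (1.44, limma adjusted p = 0.00154), 14 lay below 0, 10 of them without overlap, and the median was -0.20. The sum was 74.0 and 77.1 against 80.7 and 84.6, and without Ramp2 65.9 and 68.6 against 56.1 and 60.9. Schwann cell and nerve genes had 1 of 6 fall, Ncam1 (-1.11, limma adjusted p = 0.0417), all 6 below 0 and a median of -0.61, with sums of 48.8 and 87.8 against 42.7 and 42.8. Luminal epithelium had 1 of 13 rise, Epcam (0.79, limma adjusted p = 0.0328), with sums of 14642 and 11970 against 17160 and 13977. Most of each sum was Pbsn, at 12135 and 9477 scaled FPKM in the wild types and 14386 and 11155 in the homozygotes. Leaving Pbsn out, the sums of mice 26 and 29 lay above those of mice 27 and 28. Of the 13 genes, 8 lay above 0 and 5 below it. Macrophages had 1 of 10 rise, Cd14 (1.64, limma adjusted p = 0.000986). Of 10 adipocyte genes 9 lay below 0, with a median of -0.37. Calls were absent by limma in adipocytes (0 at an unadjusted p under 0.05, and 1 lower in the authors' deposited table), basal epithelium (2 higher at an unadjusted p under 0.05, and 0 in that table) and urothelium (0 at an unadjusted p under 0.05, and 4 lower in that table), where Fabp4 (-0.39), Krt17 (0.48) and Upk1b (-0.48) had the largest moderated statistics. Without mouse 26, without mouse 29 and without a filter the calls of Postn, Mcam, Anpep, Ncam1 and Epcam were lost, that of Epcam also without mouse 28 and those of Mcam, Anpep and Ncam1 with unscaled FPKM, and that of Mcam with scaling on fibroblast genes (0.104) and with no variance trend (0.0576). How far changes in the share of these cells enter the smooth muscle differences was not tested.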

How the data were processed

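RNA was measured by sequencing in 4 libraries, each from its own mouse, with 2 wild types (mice 27 and 28) and 2 TMPRSS2:ERG homozygotes (mice 26 and 29), grouped by the labels. Libraries followed Illumina's standard methods, per the labels' protocols. TopHat 1.3, Cufflinks 1.3 and build mm10 are named in the submitters' processing notes. The role of each and whether strand was used: not given in the sources used here. Deposited values are 1 FPKM per gene and library, a unit read from the values. The deposited table also holds the authors' comparison of genotypes as a score, a log2 fold by its values, and each gene has the authors' p-value and q-value. Depth is not given. The step between the lowest values of genes with 1 transcript places the libraries at about 45.3 to 52.0 times 1e+06 fragments, an estimate. Starts were raised by 1, which makes 10077 of 20887 of them equal to a GENCODE transcript start, against 895 as deposited.

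The value 99999 was read as a code and treated as missing (2 to 6 genes a library). FPKM was divided by median-of-ratios factors over 11080 genes (between 0.921 and 1.04). The test took genes that averaged 1 scaled FPKM or more and had all 4 values, on log2(scaled FPKM + 1) with limma 3.58.1 in R 4.3.3 (trend, two-sided, Benjamini-Hochberg adjustment over 11762 genes, threshold 0.05), with 2 residual degrees of freedom. The fit was tested on simulated data. Count tests were not run on FPKM. Of the genes called, 60.8% were higher in homozygotes, against 73.0% without scaling and 73.6% with scaling on fibroblast genes. Other settings tried were those 2 scalings, quantile normalization, a pseudocount of 0.1, a filter at 5 or none, the variance trend left out or made robust, dropping each library in turn, and the authors' call.

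The members and all lists were chosen with earlier results of these data known. Every member was accounted for, with values per library for the called member, Acta2, Myh11, Tagln, Cnn1, Des, Actg2, Myocd and the 4 largest differences in each direction. Since no difference was above 0, the latter gave Ppp1r14a, Des, Pgm5 and Tagln. List genes were named where called or with the largest moderated statistic of their list. Other genes named, such as Mylk, Vcl, Pdlim3, Lpp, Srf, Acta1 and Lims2, were chosen after their values were seen. Promoter sequences are from RefSeq (GRCm38.p6). The limma p-values rest on the spread between these mice, with each gene's variance drawn toward that of genes of similar level (3.625 prior degrees of freedom).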

Additional observations from a re-analysis of the deposited data

How the results depend on the processing

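Of the smooth muscle results, the direction held throughout. All tested members lay below 0 with each scaling, pseudocount, filter and trend, and in the authors' deposited table. Lpp, tested solely without mouse 28, was the exception there. No setting called a member higher. The median over members ran from -0.26 (scaled on fibroblast genes) to -0.55 (quantile normalization) over the settings that kept all libraries, and from -0.63 (without mouse 28) to -0.29 (without mouse 27) with a library left out. The number called lower, 1 at the main settings, was 4 with quantile normalization, 4 by the authors' deposited call and 0 without a filter on low values (7 at an unadjusted p under 0.05), and ran from 0 to 16 with a library left out. The cause of these shifts was not tested. Among other named genes, Upk1b lay above 0 without mouse 28 (0.028) and at -0.98 without mouse 27. The alternatives for genes that are no members were applied after seeing the data. No paired analysis was possible because the genotypes share no mouse or replicate number. With 2 mice a group an exact two-sided permutation test cannot give a p under 0.333.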

Other observations

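The pore and beta subunits of the calcium-activated potassium channel stood apart between the genotypes within each library. Kcnma1 was 8.76 and 9.62 times Kcnmb1 by FPKM in wild-type mice 27 and 28 and 25.3 and 20.2 times in homozygous mice 26 and 29, so the groups did not overlap. The locus of Kcnmb1 lies inside another row of the table. The ratio of Actg2 to Acta2, the actin of visceral over that of vascular muscle, was 0.513 and 0.360 in the wild types and 0.429 and 0.427 in the homozygotes. The homozygotes were nearly equal and lay between the wild types. Both ratios were chosen after their values were seen and carry no test.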
